A study of Mus musculus with 12 samples.

Results

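The strain by diet interaction asks, for each gene, whether the response to acyclic retinoid (ACR) in the liver differed between the mouse strains LiKM and LiK. It was computed as the ACR minus normal diet difference in LiKM, minus the same difference in LiK, over all 12 libraries of the study and all 13880 of 24421 genes with enough counts to test. A positive value marks a response that was more positive in LiKM, and a negative value one that was more negative there. All 12 libraries were from liver without tumour of male mice aged 4 months, with 3 libraries in each of 4 groups. Each library has an identifier of its own, read here as that of a mouse. The groups were LiK on the normal diet, LiK on ACR, LiKM on the normal diet and LiKM on ACR. ACR made up 0.06% of the diet and was given from week 5 of life, and mice on the normal diet are called controls below. The labels give the strains by these names only. As the published model is known, Mdm2 is deleted in hepatocytes of LiKM. No wild-type mouse was among the 12, and hepatocytes and other cells were not separated.

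ACR, also called peretinoin, is a synthetic vitamin A analog that has been tested against the recurrence of liver cancer. Retinoids act through the nuclear receptors RAR and RXR, and RXR is also the partner of the receptors for fatty acids, oxysterols and bile acids, so that a retinoid can reach lipid genes as well as classical retinoid targets. Mdm2 is the ubiquitin ligase that keeps p53 low. Liver that loses hepatocytes to p53 activity often shows a ductular reaction, in which cells with genes of bile duct and progenitor cells expand. Many liver genes also follow the circadian clock, so that the hour of tissue collection, which the labels do not give, moves them between mice.

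Libraries held 10124813 to 18647156 counts. Albumin took 8.01 to 13% of counts and the summed level of 22 hepatocyte markers was 116000 to 197000 CPM (counts scaled to a common library size with TMM factors) across the libraries, in keeping with the tissue label. The targeted gene was not lower in the libraries labelled LiKM. Mdm2 had 24.1, 23.4 and 25.8 CPM in LiK controls, 21.6, 22.4 and 23.5 in LiK on ACR, 35, 30.4 and 29 in LiKM controls and 31.8, 47.6 and 67.2 in LiKM on ACR. Liver also holds other cells than hepatocytes, and Mdm2 is a target of p53, so LiKM stands below for the label and not for a measured loss. On the second principal component (13.9% of the variance) the 3 LiK libraries on ACR lay at -23.6 to -24.5 and those on the normal diet at 14.5 to 18.1. LiKM normal diet 3 (-29.7) and LiKM ACR diet 3 (-24.6) lay with the LiK ACR libraries, and the other LiKM libraries at 13.8 to 31.1. Clock genes set the same libraries apart, and LiKM ACR diet 2 besides, so results below are also given with clock gene components as covariates and without these 3 LiKM libraries. Identifiers of the animals begin with KM except in LiK normal diet 2, LiK normal diet 3 and LiKM ACR diet 3, where they begin with MP. No source used here says what the prefix stands for.

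The organelle transport gene Mreg was the 1 gene that passed the interaction test (0.0072% of genes tested, edgeR quasi-likelihood test with Benjamini-Hochberg adjustment over all genes, adjusted p under 0.05). At an unadjusted p under 0.05 there were 1593 genes (11.5%), 664 with a response more positive in LiKM (4.78%) and 929 with one more negative (6.69%). With library size alone as scaling, the unadjusted split was 154 against 2181 and the median interaction of all genes was -0.29 on the log2 scale, against -0.02, so directions below are relative to the TMM scaling. DESeq2 called 160 genes (1.15% of those it tested), 49 more positive and 111 more negative. Same-numbered LiKM mice deviated together from their group means, and with the replicate block within LiKM only 260 genes passed (1.87%), 136 more positive and 124 more negative. The labels do not say what a number shares, and this block was added after the data were seen. Where a gene below is given with the replicate block and no further word, the block within LiKM only is meant. An adjusted p from it is not a planned result. With the core clock components as covariates 0 genes passed in edgeR, and 664 had an unadjusted p under 0.05. Without LiKM normal diet 3, LiKM ACR diet 2 and LiKM ACR diet 3 the count was 15, and the count was 0 without any single LiK library or without LiKM ACR diet 2, 6 without LiKM normal diet 1, 13 without LiKM ACR diet 1 and 20 without LiKM ACR diet 3.

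The estimated diet effects that the interaction sets against each other were close to uncorrelated across genes. In LiK, 27 genes passed (0.195%), 18 higher and 9 lower on ACR, and 16 of the 27 had the opposite sign in LiKM. The number called in LiK was 701 with the replicate block within LiKM only, 397 with DESeq2 and 0 with the clock components. It was 9 without LiK normal diet 1, 0 without LiK normal diet 2, LiK normal diet 3 or LiK ACR diet 1, 12 without LiK ACR diet 2 and 13 without LiK ACR diet 3. Leaving out single LiKM libraries gave 54 (normal diet 1), 18 (normal diet 2), 108 (normal diet 3), 32 (ACR diet 1), 41 (ACR diet 2) and 53 (ACR diet 3). In LiKM, 0 genes passed in edgeR (0% of those tested), with a smallest adjusted p of 0.0609, 1005 genes at an unadjusted p under 0.05, 79 genes called by DESeq2 and 12 by limma-voom. With the replicate block within LiKM only 9 passed, and the count was 1 without LiK ACR diet 1, 2 without LiK ACR diet 3 and 5 without LiKM ACR diet 1. Across all genes tested the log2 diet effects of the strains had a Pearson correlation of 0.04 and a Spearman correlation of -0.02, values that describe genes, which are not independent replicates. Of 10357 genes whose mean reached 5 CPM in some group, 5650 (54.6%) had diet effects of opposite sign. The median absolute log2 diet effect was 0.20 in LiK and 0.14 in LiKM, against a median SE of 0.20 in each. Most effects were thus within their noise, and these values do not show that the responses were unrelated. At an unadjusted p under 0.05 in both strains were 191 genes. Of these, 85 had the same sign (44 higher and 41 lower on ACR) and 106 (0.764% of all tested) had opposite signs, 79 of them higher in LiK and lower in LiKM, and 27 the reverse. In 160 genes (1.15%) the libraries of the diets did not overlap in either strain and differed in opposite directions, and in 129 they did so in the same direction.

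**Figure D1:**
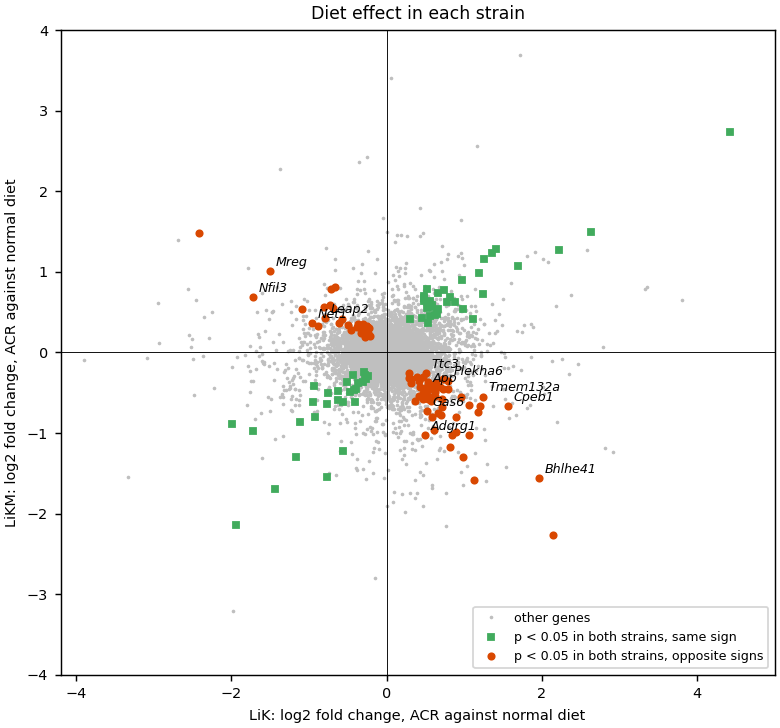
Log2 fold change on ACR against the normal diet in LiK (horizontal axis) and in LiKM (vertical axis) for the 10357 genes whose mean reached 5 CPM in some group. Orange circles are the 83 genes with an unadjusted p under 0.05 in both strains and opposite signs, green squares the 61 with the same sign, and the 12 opposite responders of smallest interaction p are named; most orange circles lie in the lower right, higher in LiK and lower in LiKM.

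Mreg (ENSMUSG00000039395.8, mm10 chr1:72159442-72212307, minus strand) encodes melanoregulin, a protein of organelle transport and of phagosome handling. Its level was 29.7, 33 and 29 CPM in LiK controls and 11.2, 11.3 and 9.88 on ACR. LiKM controls had 16.6, 20.7 and 11.9 CPM and LiKM mice had 24.6, 39.1 and 35.2 on ACR. Libraries of the diets did not overlap in either strain, with ACR low in LiK and high in LiKM. Mreg fell 2.83-fold in LiK (log2 -1.50, SE 0.20, edgeR adjusted p = 0.0179), while the LiKM value was log2 1.01 (SE 0.20, edgeR adjusted p = 0.187). The interaction was log2 2.51 (SE 0.29, edgeR adjusted p = 0.0201). Without the 3 LiKM libraries named above, which leaves 1 LiKM mouse on ACR, it was 1.92, from -1.50 in LiK and 0.41 in LiKM. It was 2.51 (edgeR adjusted p = 0.00128) with the replicate block within LiKM only. The call ended with the clock components (1.59, edgeR adjusted p = 0.971) and with the prefix of the identifiers (2.40, 0.0984) as covariates. Leaving out LiK normal diet 1, 2 or 3 gave edgeR adjusted p = 0.088, 0.0873 and 0.0784, leaving out LiK ACR diet 1, 2 or 3 gave 0.0516, 0.0566 and 0.104, and leaving out LiKM ACR diet 2 gave 0.0702.

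The 11 genes next to Mreg with a more positive response in LiKM did not pass the interaction test (edgeR adjusted p = 0.0784 to 0.139). All 11 had an interaction above 0 under each of 25 alternatives, and all 11 passed with the replicate block within LiKM only (edgeR adjusted p up to 0.0453). They were picked for a small interaction p in these same libraries, so neither is separate evidence. That block was added after the data were seen. Agpat2, which makes phosphatidic acid for triglyceride synthesis, had 223, 241 and 208 CPM in LiK controls and 111, 108 and 92.7 on ACR. LiKM controls had 185, 194 and 150 CPM and LiKM mice had 186, 228 and 167 on ACR. The LiK diets did not overlap and the LiKM diets did. Agpat2 fell 2.16-fold in LiK (edgeR adjusted p = 0.017), with log2 0.13 in LiKM (0.935) and an interaction of 1.24 (SE 0.20, edgeR adjusted p = 0.0784; with the replicate block 0.00278). Slc45a3, a sugar transporter of the solute carrier family, had 42.1 to 51.9 CPM in LiK controls and 13.2 to 15.6 on ACR, against 25.8 to 45.8 and 37.8 to 79.3 in LiKM. It fell 3.19-fold in LiK (edgeR adjusted p = 0.0452), and its interaction was 2.17 (edgeR adjusted p = 0.0906, and 0.0117 with the replicate block). Without the 3 LiKM libraries the interaction was 1.47, with a LiKM diet effect of -0.20. Slc30a10, the hepatic manganese exporter, had 53 to 79.9 CPM and 30.4 to 33.1 on ACR in LiK, and 39.8 to 69.1 and 61.3 to 90.6 in LiKM, with an interaction of 1.63 (edgeR adjusted p = 0.0906).

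Net1, an exchange factor for RhoA, had 72.8, 74 and 55.9 CPM in LiK controls and 33.9, 33.8 and 36.8 on ACR, and 74.9, 56.5 and 54.1 against 66.4, 86.4 and 86.1 in LiKM. It fell 1.94-fold in LiK (edgeR adjusted p = 0.0373), and the LiK diets did not overlap, while those of LiKM did. Leap2, a liver peptide that blocks the ghrelin receptor, had 32.7 to 39.1 CPM in LiK controls and 20 to 22 on ACR, against 20.8 to 26.4 and 25.4 to 37.4 in LiKM. Its interaction was 1.21 (edgeR adjusted p = 0.0865). The elongation factor subunit Leo1 (1.22), the threonyl-tRNA ligase Tars (1.37), the galectin-like Lgalsl (1.48), the ATP synthase subunit Atp5k (0.69) and the molybdopterin synthase gene Mocs2 (0.74) had interactions with edgeR adjusted p between 0.0906 and 0.139. Atp5k differed little in size but did not overlap in either strain: 56.2 to 67.1 CPM against 44.1 to 49 on ACR in LiK, and 39 to 43 against 50.9 to 52.1 in LiKM. All 11 genes named by rule and called in LiK lost the call with the clock components as covariates (edgeR adjusted p = 0.324 to 0.605), and each was called under 14 to 21 of 26 alternatives.

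The 12 genes of smallest p with a more negative response in LiKM included Gas6, Adgrg1, Tmem132a, App, Itga3, Rhbdf1, Cpeb1, Plekha6 and Ttc3. In these, all LiKM controls stood above all LiK controls. Picking genes by a negative interaction favours that order, since the interaction falls as LiKM controls rise and as LiK controls fall. The share of all genes with that order was not counted, so the order is no separate result about these genes. None of the 12 passed the interaction test (edgeR adjusted p = 0.0633 to 0.0906). All 12 stayed below 0 under each of 25 alternatives, and all 12 passed with the replicate block within LiKM only (edgeR adjusted p up to 0.0233). As above, the genes were picked from these same libraries, so neither is separate evidence. Gas6, the ligand of the receptor kinases Axl and Mertk, had 44.3, 42.3 and 34.3 CPM in LiK controls and 65.4, 52.9 and 55.6 on ACR. LiKM controls had 154, 138 and 171 CPM and LiKM mice had 84.5, 97.1 and 97.6 on ACR. The diets did not overlap in either strain, and all LiKM values exceeded all LiK values. Its diet effect was log2 0.52 in LiK (edgeR adjusted p = 0.121) and -0.73 in LiKM (0.121), and the interaction -1.25 (SE 0.18, edgeR adjusted p = 0.0633; with the replicate block 0.0117). Without the 3 LiKM libraries it was -1.30, and with the clock components -1.25 (edgeR adjusted p = 0.971).

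Adgrg1, an adhesion receptor coupled to G proteins, had 2.89, 3.40 and 3.77 CPM in LiK controls and 4.40, 4.99 and 4.73 on ACR, and 16.8, 14.2 and 16.7 against 6.72, 8.54 and 8.17 in LiKM. Its LiKM value was log2 -1.02 (SE 0.15, edgeR adjusted p = 0.0609) and its interaction -1.52 (SE 0.22, 0.0633; with the replicate block 0.0137). The integrin subunit Itga3 had 7.19 to 7.96 CPM and 8.09 to 9.52 on ACR in LiK, and 23.8 to 28.2 and 12.4 to 15.5 in LiKM, with a diet effect of log2 0.19 in LiK and -0.84 in LiKM (edgeR adjusted p = 0.0609) and an interaction of -1.03. The amyloid precursor App had 81.8, 72.3 and 82.7 CPM in LiK controls and 124, 101 and 114 on ACR, and 198, 189 and 183 against 132, 155 and 136 in LiKM. Diets did not overlap in either strain for App, Adgrg1 and Itga3. Tmem132a, a membrane protein, rose 2.37-fold in LiK (1.27, 1.30 and 1.34 CPM to 2.74, 3.20 and 3.36, edgeR adjusted p = 0.0397) and went from 6.96, 8.66 and 7.56 to 4.60, 4.88 and 6.34 in LiKM. Rhbdf1, a pseudoprotease that steers TACE to the cell surface, had 5.49 to 6.78 and 8.57 to 9.30 CPM in LiK and 17.1 to 20.1 and 10.1 to 14.6 in LiKM.

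Cpeb1, which binds mRNAs and controls their translation, had 3.17, 2.72 and 2.43 CPM in LiK controls and 11.2, 6.46 and 7 on ACR, and 7.14, 6.97 and 7.80 against 4.91, 4.47 and 4.39 in LiKM. It rose 2.95-fold in LiK (edgeR adjusted p = 0.02), with log2 -0.67 in LiKM (0.445) and an interaction of -2.23 (SE 0.30, edgeR adjusted p = 0.0633; with the replicate block 0.0122). Sel1l3 rose 1.80-fold in LiK (28 to 31.1 CPM and 47 to 56.4 on ACR, edgeR adjusted p = 0.02), and in LiKM it had 25.3 to 33.4 and 22.6 to 26.6. Plekha6, a junction protein, rose 1.74-fold in LiK (58.2 to 73.4 and 106 to 128 CPM, edgeR adjusted p = 0.0488) and had 74.7 to 92 and 60.9 to 78.7 CPM in LiKM. Mpdz, a scaffold of tight junctions, had 23.2 to 23.7 and 32.3 to 40.7 CPM in LiK and 21.1 to 26.3 and 14.6 to 19.8 in LiKM. Ttc3, a ubiquitin ligase gene whose values were not whole in 9 libraries and which overlaps Pigp on the other strand, had 22.1 to 23 and 31.7 to 33.2 CPM in LiK and 26.8 to 30.7 and 22.2 to 26 in LiKM, and its level is uncertain. No source used here gives the strand setting of the counting, and Agpat2 (with Egfl7), Gas6 (with Tmem255b) and Tmem132a (with Slc15a3) also overlap genes on the other strand.

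**Figure D2:**
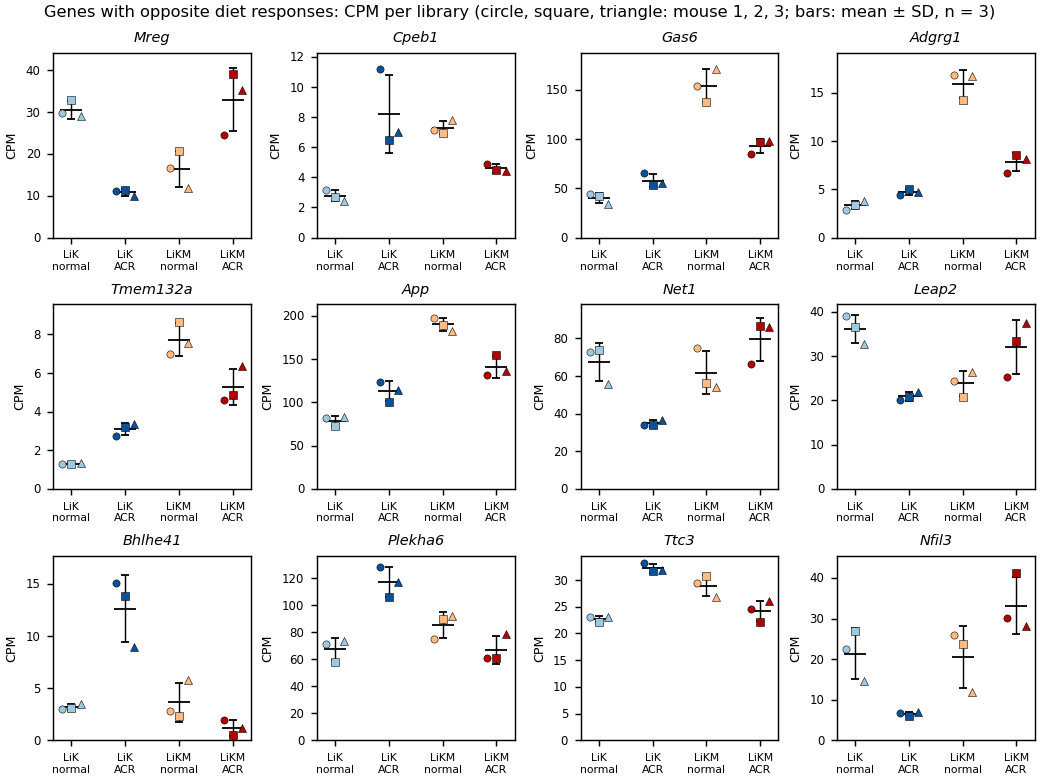
CPM in each library (vertical axes, from 0) for the 12 genes with opposite diet effects in the strains and the smallest interaction p, by group (horizontal axes); circles, squares and triangles are mice 1, 2 and 3, and bars are mean ± SD. Mreg, Net1, Leap2 and Nfil3 are lower on ACR in LiK and higher in LiKM on average, and the other 8 the reverse. Gas6, Adgrg1, Tmem132a and App have their highest levels in LiKM on the normal diet, which picking by a negative interaction favours.

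Genes of bile duct and progenitor cells formed the list with the most negative median interaction. Of 27 markers tested, 26 had an interaction below 0, 14 of them at an unadjusted p under 0.05 and 0 the other way. At that p were 51.9% of the markers, against 11.5% of all genes. The median was -1.73 (all genes -0.02), made up of a median diet effect of 0.40 in LiK and -1.21 in LiKM. All 27 had a diet effect below 0 in LiKM, 18 at an unadjusted p under 0.05 (background for lower on ACR 4.91%, for higher 2.33%), and in 21 the LiKM diets did not overlap (background 6.7%). None passed the interaction test in edgeR, DESeq2 called 7, and with the replicate block 5 passed within each strain and 2 within LiKM only. In LiK 3 were higher on ACR at an unadjusted p under 0.05 (background 7.41%) and 0 lower (background 6.66%). The medians were the same to the second decimal without Sctr and Mmp7, which had no count in any LiK library on the normal diet.

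Ehf, an epithelial ETS factor, had 0.634, 0.509 and 0.419 CPM in LiK controls and 1.01, 0.599 and 0.343 on ACR. LiKM controls had 11.3, 12.7 and 12.5 CPM and LiKM mice had 2.92, 3.93 and 4.03 on ACR. LiKM values thus exceeded LiK values on both diets, and only the LiKM diets were apart (log2 -1.74, SE 0.24, edgeR adjusted p = 0.0609). Its interaction was -2.04 (SE 0.45, edgeR adjusted p = 0.139; with the replicate block 0.0499). Cd24a, a surface protein of progenitor cells, had 1.06, 1.47 and 1 CPM against 4.90, 1.53 and 1.51 on ACR in LiK, and 32.5, 43.3 and 40.5 against 8.71, 15 and 15.1 in LiKM, with an interaction of -2.71 (edgeR adjusted p = 0.139). Pkhd1, a protein of bile duct cilia that is mutated in polycystic kidney and liver disease, went from 29.6, 36 and 40 to 11.5, 16.1 and 19.4 CPM in LiKM, with 4.87 to 8.04 and 7.27 to 11.9 in LiK (interaction -1.62, edgeR adjusted p = 0.139; with the replicate block 0.0263).

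Much of the LiK side came from 1 mouse. The summed level of the markers was 229 to 283 CPM in LiK controls and 241 to 456 on ACR, and 926 to 1380 and 552 to 755 in LiKM. LiK ACR diet 1 had 172 CPM of the matrix protein Spp1 against 43.5 and 29.7 in the other mice of its group, and 2.88 CPM of the adhesion molecule Epcam against 0.999 and 0.549. Without it the median diet effect in LiK was -0.11 (0.61 without LiK ACR diet 2 and 0.70 without LiK ACR diet 3), the median interaction -0.99, and 8 markers had an unadjusted interaction p under 0.05. The median in LiKM was -1.12 without the 3 LiKM libraries that stood apart, -1.13 with the clock components and -1.34 with library size alone. In bulk tissue, fewer cells of a type and less RNA per cell cannot be told apart. Hepatocyte markers had the opposite sign (median 0.17 in LiKM, 0.31 without LiKM ACR diet 3). Of 22, 6 were higher and 0 lower on ACR in LiKM at an unadjusted p under 0.05 (background 2.33% and 4.91%). Their summed level in LiKM was 116000 to 127000 CPM on the normal diet and 161000 to 191000 on ACR, and their part in the result was not tested.

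**Figure D3:**
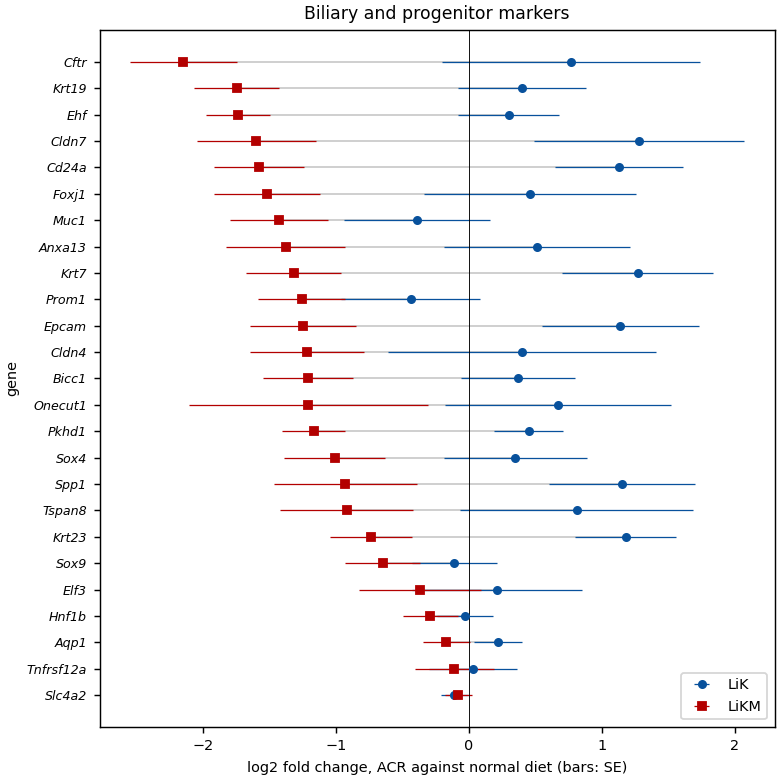
Log2 fold change on ACR against the normal diet (horizontal axis, bars are SE) in LiK (blue circles) and LiKM (red squares) for 25 biliary and progenitor markers; 2 markers with no count in LiK on the normal diet are not drawn. Every red square lies below 0, while most blue circles lie near or above 0.

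Targets of YAP and TEAD, a pathway active in bile duct cells, had a negative median interaction. Of 19 tested, 4 had an unadjusted interaction p under 0.05, all negative (21.1%, against 11.5% of all genes). The median interaction was -0.63, from 0.03 in LiK and -0.50 in LiKM, and it was -0.31 without LiK ACR diet 1. Without LiKM normal diet 3 the LiKM median was -0.28 and the median interaction -0.42. The stretch-response gene Ankrd1 had 7.44, 6.55 and 9.78 CPM in LiKM controls and 2.05, 1.49 and 3.78 on ACR, and at most 0.283 in any LiK library. Arhgef17, an exchange factor for RhoA, went from 18.2, 15.6 and 13.8 to 7.15, 7.59 and 7.26 CPM in LiKM and had 3.35 to 5.38 and 3.60 to 4.54 in LiK. Ctgf, the standard reporter gene of the pathway, had 8.52, 9.34 and 5.53 CPM and 16.4, 11.5 and 7.96 on ACR in LiK, and 35.6, 40.4 and 15.4 and 20, 35.6 and 9.15 in LiKM. Diets overlapped in both strains for Ctgf, and its interaction was -1.11 (SE 0.70, edgeR adjusted p = 0.572).

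Clock genes had large interactions and, in LiKM, a wide spread between mice. Arntl encodes BMAL1, which with CLOCK drives the E-box genes. It had 5.85, 5.77 and 6.53 CPM in LiK controls and 0.721, 1.73 and 0.892 on ACR, and 10.4, 5.71 and 7.16 against 5.66, 30.3 and 29.6 in LiKM. ACR libraries were thus all low in LiK, and in LiKM 2 of 3 were high and the other just below its controls. Its interaction was 3.91 (SE 0.81, edgeR adjusted p = 0.139), 1.92 without the 3 LiKM libraries and 0.86 with the clock components. Arntl is among the genes from which these components were made, so its smaller value with them is no test. For the PAR-domain factor Dbp, an E-box gene, the group differences had the opposite signs. It had 35.9, 25.6 and 31.8 CPM in LiK controls and 139, 137 and 136 on ACR, and 8.46, 25.6 and 74 against 15.4, 3.25 and 3.54 in LiKM, with an interaction of -4.41 (SE 1.05, edgeR adjusted p = 0.2).

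Nr1d1, which encodes REV-ERB alpha and overlaps Thra on the other strand, had 23.2, 27.2 and 16.1 CPM in LiK controls and 136, 181 and 153 on ACR. LiKM controls had 8.04, 20.7 and 215 CPM and LiKM mice had 18.2, 7.12 and 81.2 on ACR, so that the LiKM mice numbered 3 were high on both diets. Cry1 had 24.8 to 32.1 and 6.13 to 11.1 CPM in LiK, and 31.9, 21.7 and 5.17 against 28.1, 80.4 and 14.1 in LiKM. Of the 15 core clock genes 3 had a positive and 3 a negative interaction at an unadjusted p under 0.05. They made up 40% of the list, against 11.5% of all genes, and no core clock gene passed in edgeR. The core clock components used as covariates held 58.4% and 31.6% of the variance of these genes. In LiK their scores did not overlap between the diets, so clock state and diet cannot be told apart there.

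Of the core clock list and the clock regulators, Bhlhe41 and Nfil3 were the ones named for the smallest p, and the diets overlapped in neither strain. Bhlhe41, also called DEC2, is an E-box repressor. It had 3.03, 3.11 and 3.52 CPM in LiK controls and 15.1, 13.8 and 8.99 on ACR, and 2.82, 2.32 and 5.81 against 1.99, 0.475 and 1.16 in LiKM, with an interaction of -3.53 (SE 0.60, edgeR adjusted p = 0.0865; with the replicate block 0.0106). Nfil3, also called E4BP4, represses D-box genes and is itself repressed by REV-ERB. It had 22.5, 26.9 and 14.7 CPM in LiK controls and 6.63, 5.93 and 7 on ACR, and 26, 23.7 and 11.8 against 30.1, 41.2 and 28.2 in LiKM, with an interaction of 2.41 (SE 0.41, edgeR adjusted p = 0.0865; with the replicate block 0.0126). Without the 3 LiKM libraries these were -2.33 and 2.01, and with the clock components -1.31 and 1.41. Bhlhe41 is among the core clock genes from which the components were made, so its smaller value with them is no test. The promoters of Bhlhe41 and Nfil3 are shown because each holds a motif of the clock loop. Both stretches are from RefSeq (GRCm38.p6), on the minus strand, from the 250 bases before the RefSeq start, with the motif in capitals. The E-box CACGTG in Bhlhe41 lies 153 to 148 bases before that start. The REV-ERB core TAGGTCA in Nfil3, on the opposite strand, lies 12 to 6 bases before it. GENCODE starts differ, at chr6:145865558 and chr13:52981073, and by them the Nfil3 core lies inside the gene.
Bhlhe41 (chr6:145865528-145865613): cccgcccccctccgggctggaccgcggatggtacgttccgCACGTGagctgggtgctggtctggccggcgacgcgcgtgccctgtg
Nfil3 (chr13:52981040-52981091): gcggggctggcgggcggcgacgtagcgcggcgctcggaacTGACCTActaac
Searched on both strands, the E-box was in 6.86% of the promoters of 27025 genes and the core TAGGTCA in 2.55%. Of 46 named genes with a promoter in the table, 4 had the E-box, 4 the core and 0 the D-box TTATGTAA (0.977% of all promoters). A match is a description of these letters, and the promoters to print were chosen after the matches were seen.

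**Figure D4:**
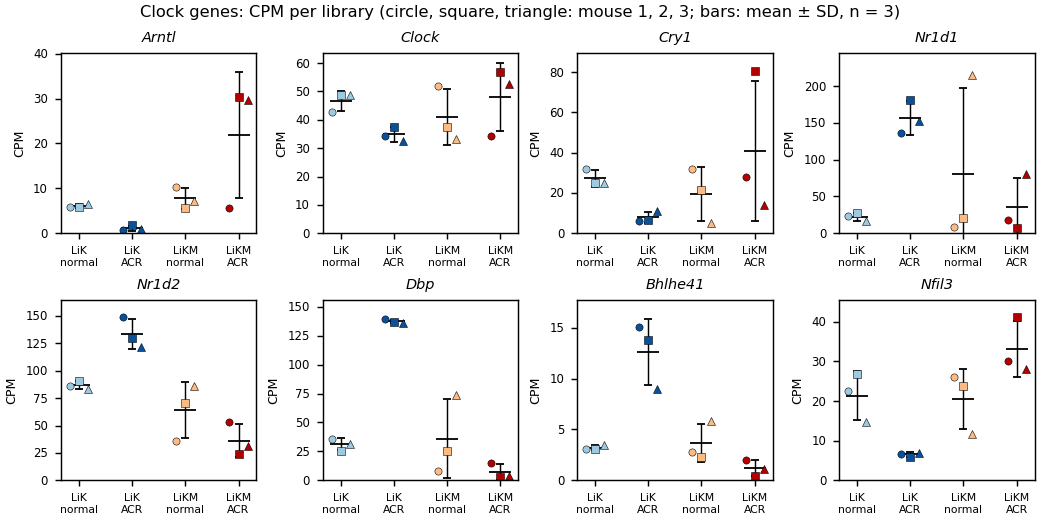
CPM in each library (vertical axes, from 0) of 8 clock genes and regulators by group; circles, squares and triangles are mice 1, 2 and 3, and bars are mean ± SD. In LiK the diets lie apart for all 8 genes, whereas in LiKM they overlap for most, and single mice stand apart, such as mouse 3 of both diets for Nr1d1 and mouse 2 on ACR for Cry1.

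Genes of cholesterol synthesis had a larger median diet effect in LiK than in LiKM. Of 25 tested, 10 had a negative and 1 a positive interaction at an unadjusted p under 0.05 (44%, against 11.5% of all genes). The median was -0.46, from 0.60 in LiK and 0.21 in LiKM. In LiK the libraries of the diets did not overlap in 17 of 25 with ACR higher (background 13.4%) and in 1 with ACR lower. Stard4, a carrier of sterols within cells, rose 2.15-fold in LiK (91.1, 76.2 and 84.8 CPM to 198, 195 and 148, edgeR adjusted p = 0.02) and had 43.9, 50.9 and 66.3 against 58.7, 50 and 50.3 CPM in LiKM. Its interaction was -1.12 (SE 0.23, edgeR adjusted p = 0.139; with the replicate block 0.0347). The reductase Hsd17b7 had 51.8 to 59.7 and 85.9 to 103 CPM in LiK and 35.1 to 50.7 and 37.4 to 48 in LiKM (interaction -0.73, edgeR adjusted p = 0.229; with the replicate block 0.0263). The isomerase Ebp went against the list, with 163, 163 and 164 against 151, 157 and 154 CPM in LiK and 115, 109 and 101 against 138, 142 and 124 in LiKM (interaction 0.40). For Hmgcs1, the enzyme ahead of the rate-limiting reductase, LiKM normal diet 3 had 332 CPM against 115 and 89.7 in the other mice of its group. With the clock components the list's median was -0.02, with library size alone -0.79, without the 3 LiKM libraries -0.29, and without LiKM normal diet 3 alone -0.28. The LiKM median was 0.42 without that library and 0.02 without LiKM normal diet 2. The count of 10 was 6 without LiKM normal diet 3 and 5 without LiKM ACR diet 2. With the replicate block 2 members passed when it ran within each strain and 6 when it ran within LiKM only.

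Fatty acid synthesis genes lay on the other side. Of 25 tested, 8 had a positive and 1 a negative interaction at an unadjusted p under 0.05 (36%, against 11.5% of all genes). The median was 0.67, from -0.53 in LiK and 0.08 in LiKM. Fasn, the fatty acid synthase, had 7660, 3770 and 4680 CPM in LiK controls and 1440, 1390 and 2540 on ACR, and 3990, 3450 and 1630 against 3270, 3440 and 1510 in LiKM. The LiK diets did not overlap, and in LiKM mouse 3 was low on both diets. Pklr, liver pyruvate kinase, had 1020 to 1380 and 516 to 618 CPM in LiK, and 582, 775 and 404 against 530, 736 and 408 in LiKM, with an interaction of 1.05 (SE 0.35, edgeR adjusted p = 0.308; with the replicate block 0.021). Tkfc, a fructose enzyme, had 604 to 761 and 275 to 382 CPM in LiK (interaction 1.18, edgeR adjusted p = 0.224; with the replicate block 0.0239), and the acetyl-CoA carboxylase Acaca 402 to 745 and 266 to 332 (interaction 1.02, 0.356). The desaturase Fads2 went against the list, with an interaction of -0.61. With the clock components the median turned to -0.16, with library size alone it was 0.40, and without the 3 LiKM libraries 0.33. The LiKM median was -0.11 without LiKM normal diet 3, -0.01 without LiKM ACR diet 1 and -0.12 without LiKM ACR diet 2. The count of 8 was 3 without LiK normal diet 1, LiK ACR diet 2 or LiKM normal diet 3, 4 without LiK ACR diet 1 and 2 without LiKM ACR diet 2. With the replicate block 2 members passed within each strain and 3 within LiKM only. Both lipid lists share SREBP factors as textbook regulators, SREBP2 for sterols and SREBP1 for fatty acids, and their medians lay on opposite sides of 0 in LiK.

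Lists of carbohydrate genes and of periportal hepatocyte genes had positive median interactions. Of 29 glucose and fasting genes 6 were positive and 0 negative at an unadjusted p under 0.05 (20.7%, against 11.5% of all genes). Their median was 0.24, and -0.04 with library size alone. Of 20 periportal genes 6 were positive and 0 negative (30%), with a median of 0.46, and 0.18 with library size alone. Ppp1r3b, which targets a phosphatase to glycogen, had 605, 657 and 690 CPM in LiK controls and 96, 127 and 175 on ACR. LiKM controls had 472, 407 and 119 CPM against 513, 494 and 125 on ACR, so that mouse 3 was low on both diets and the diets overlapped. Its interaction was 2.47 (SE 0.78, edgeR adjusted p = 0.292, and 0.00278 with the replicate block within LiKM only). Without the 3 LiKM libraries the interaction was 2.53. Glycogen phosphorylase Pygl had 643 to 726 and 417 to 438 CPM in LiK and 322 to 551 and 483 to 639 in LiKM (interaction 0.94, edgeR adjusted p = 0.225; with the replicate block 0.0197). The urea cycle enzyme Ass1 had 1240 to 1640 and 856 to 957 CPM in LiK and 557 to 894 and 617 to 971 in LiKM (interaction 0.80, with values not whole in 8 libraries). Otc, another urea cycle enzyme, was 376 to 436 and 317 to 344 CPM in LiK and 213 to 298 and 302 to 350 in LiKM, without overlap and in opposite directions. The periportal cytochrome Cyp2f2 had an interaction of 0.88 (edgeR adjusted p = 0.29; with the replicate block 0.0458). With the replicate block within each strain 4 glucose and 2 periportal genes passed, and within LiKM only 4 of each list. The glucose median was 0.10 without LiKM normal diet 3, 0.06 without LiKM ACR diet 2 and 0.39 without LiKM ACR diet 3. The periportal count of 6 was 3 without LiK normal diet 1, LiK normal diet 3, LiK ACR diet 1, LiK ACR diet 2 or LiKM normal diet 3, 2 without LiKM ACR diet 2 and 10 without LiKM ACR diet 3. Without the 3 LiKM libraries the medians were 0.14 and 0.44, and with the clock components 0.01 and 0.29.

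Cell cycle genes had a negative median diet effect in LiK. Of 35 tested, 10 had a positive and 0 a negative interaction at an unadjusted p under 0.05 (28.6%, against 11.5% of all genes). The median was 0.78, from -0.44 in LiK and 0.19 in LiKM. In 14 the LiK diets did not overlap with ACR lower (background 14.6%). Rrm2, the inducible subunit of ribonucleotide reductase, had 31.9, 22.9 and 28.7 CPM in LiK controls and 4.33, 3.53 and 6.93 on ACR, and 27.8, 16 and 6.28 against 18.9, 16.9 and 11.9 in LiKM. Its diet effect in LiK was log2 -2.50 (edgeR adjusted p = 0.0621) and its interaction 2.41 (SE 0.62, 0.224; with the replicate block 0.0233). Mcm7 of the replicative helicase had 17.3 to 18.8 and 6.92 to 10.7 CPM in LiK and 12.1 to 19.6 and 15.5 to 16.6 in LiKM (interaction 1.04, edgeR adjusted p = 0.198; with the replicate block 0.0418), and Mcm4 had an interaction of 1.46. The 6 Mcm genes measured, Mcm2 to Mcm7, all had diet effects below 0 in LiK, from -0.99 (Mcm7) to -2.48 (Mcm5), without overlap of the diets and without passing the test. The proliferation marker Mki67 had an interaction of 0.45 and a LiK diet effect of 0.05, and LiKM ACR diet 3 had 22.1 CPM of it against 10.9 and 6.17 in the other mice of its group. Without LiKM ACR diet 3 the list's median interaction was 0.32 and its LiKM median -0.12. The LiKM median was 0.03 without LiKM normal diet 2, 0.41 without LiKM normal diet 1 and 0.34 without LiKM ACR diet 2. The count of 10 was 6 without LiKM normal diet 2. In the interaction, the prefix of the identifiers as a covariate gave a median of 0.03, with 5 positive and 3 negative.

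Mitochondrial genes had small interactions, mostly above 0. Of 36 respiratory chain genes 35 lay above 0, 15 at an unadjusted p under 0.05 (41.7%, against 11.5% of all genes). None below 0 reached that p, and the median was 0.31, from -0.19 in LiK and 0.14 in LiKM. The complex I subunit Ndufb8 had 92.6, 79.3 and 77 CPM in LiK controls and 68.6, 72.4 and 68.9 on ACR, and 59.4, 60.2 and 56.5 against 64.1, 76.1 and 68.8 in LiKM, apart in both strains (interaction 0.49, SE 0.14, edgeR adjusted p = 0.237). Cox5a of complex IV had an interaction of 0.42 (edgeR adjusted p = 0.29), also without overlap in either strain, and cytochrome c, Cycs, one of 0.59 (0.302), with values not whole in 7 libraries. Mitochondrial ribosome genes had 5 of 32 positive and 0 negative (15.6%, against 11.5% of all genes), with a median of 0.16. Mrps10 (0.44), Mrpl18 (0.47) and Mrps5 (0.39) had the smallest p. With library size alone, which lowers the median of all genes to -0.29, the medians were 0.03 for the respiratory chain, with 0 at an unadjusted p under 0.05, and -0.12 for the mitochondrial ribosome. The count of 15 was 6 without LiK normal diet 1, LiKM normal diet 1 or LiKM ACR diet 2, 8 without LiK ACR diet 1 and 5 without LiK ACR diet 3, and the median stayed between 0.25 and 0.36 without single libraries. The mitochondrial ribosome median was 0.06 without LiK normal diet 1. Cytosolic ribosome genes had a median of 0.03 and 0 of 35 at an unadjusted p under 0.05. Of 27 NRF2 targets 4 were positive and 1 negative (18.5%, against 11.5% of all genes). Their median was 0.18, -0.09 with library size alone and 0.03 to 0.38 without single libraries, lowest without LiK ACR diet 1. The negative one, the basolateral exporter Abcc3, rose 2.27-fold in LiK (81.9, 60.4 and 53.7 CPM to 160, 118 and 168, edgeR adjusted p = 0.0223) and had 138, 110 and 149 against 135, 153 and 138 in LiKM (interaction -1.08, edgeR adjusted p = 0.159). The glutathione transferases Gsta4 (0.79) and Gstp1 (0.61, not whole in 10 libraries) were positive.

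The retinoid target with the largest response had it in both strains. Cyp26a1, the enzyme that clears retinoic acid and a textbook RAR target, had 2.68, 2.94 and 2.68 CPM in LiK controls and 0.216, 0.466 and 0.274 on ACR. LiKM controls had 3.06, 5.49 and 3.5 CPM and LiKM mice had 0.933, 0.746 and 0.427 on ACR. ACR libraries were below normal diet libraries in both strains without overlap. What lowered Cyp26a1 on ACR, and whether RAR had a part in it, was not tested. Cyp26a1 fell 8.43-fold in LiK (log2 -3.08, SE 0.39, edgeR adjusted p = 0.017) and its LiKM value was log2 -2.50 (SE 0.35, 0.0609). The interaction was 0.57 (SE 0.53, edgeR adjusted p = 0.713), a miss that does not show equal responses. The receptor gene Rarb had 5.14, 4.75 and 5.78 CPM in LiK controls and 4.40, 4.26 and 6.24 on ACR, and 5.82, 6.20 and 8.35 against 4.42, 3.53 and 4.70 in LiKM, with overlap in LiK only (interaction -0.61, SE 0.30, edgeR adjusted p = 0.469). Rarb overlaps Top2b on the other strand. Of 17 retinoid response genes 1 had a positive (Rdh1, 0.81, with values not whole in 12 libraries) and 1 a negative interaction (Tgm2, -0.54) at an unadjusted p under 0.05. Together they were 11.8% of the list, near the 11.5% of all genes. The promoters of Cyp26a1 and Rarb hold a DR5, the direct repeat of RAR half-sites with a spacer of 5 bases. It was in 0.104% of the 27025 promoters. They are shown, from RefSeq (GRCm38.p6) with the repeat in capitals, because both genes are textbook RAR targets. In Cyp26a1 the repeat reads on the opposite strand. The GENCODE start of Rarb differs, at chr14:16819156, and by it the printed Rarb stretch lies well inside the gene.
Cyp26a1 (plus strand, chr19:37697736-37697807): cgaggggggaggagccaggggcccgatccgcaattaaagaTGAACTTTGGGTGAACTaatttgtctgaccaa
Rarb (minus strand, chr14:16575477-16575569): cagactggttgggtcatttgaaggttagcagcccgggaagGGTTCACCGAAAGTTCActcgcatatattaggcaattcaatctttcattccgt

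PPAR alpha drives fatty acid oxidation with RXR as its partner. Of 33 PPAR alpha targets 2 had a positive and 2 a negative interaction at an unadjusted p under 0.05. Their share of 12.1% was near the 11.5% of all genes. The list had medians of 0.12 in LiK and 0.18 in LiKM. The omega-hydroxylase Cyp4a32 had 23.8, 19.6 and 22.2 CPM in LiK controls and 57.4, 40.8 and 75.7 on ACR, and 14.3, 16.5 and 14.9 against 30.4, 37.6 and 43.7 in LiKM, with an interaction of -0.12 (SE 0.28). It rose in LiK (edgeR adjusted p = 0.02), as did Cyp4a31 (log2 2.22, edgeR adjusted p = 0.017), which had log2 1.27 in LiKM and an interaction of -0.95. Both were chosen after their values were seen. They are near-identical paralogs with values not whole in 12 libraries, and their levels are uncertain. Ehhadh, a peroxisomal enzyme, had an interaction of 0.89, with 185 to 228 and 161 to 187 CPM in LiK and 76.8 to 116 and 152 to 175 in LiKM. Cidec, a lipid droplet protein, had one of -1.87, and LiKM normal diet 3 had 18.4 CPM of it against 10.3 and 4.93 in its group.

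Among genes of the p53 axis no interaction passed. Mdm2 had an interaction of 0.75 (SE 0.29, edgeR adjusted p = 0.364), 0.09 without the 3 LiKM libraries and -0.14 with the clock components. Trp53 had 14.4 to 19.5 and 14.2 to 18.4 CPM in LiK and 19.7 to 29.7 and 22.4 to 26.8 in LiKM (interaction -0.03, SE 0.24). Cdkn1a, which encodes the cell cycle inhibitor p21, had 6.97, 3.62 and 5.95 CPM in LiK controls and 1.73, 1.66 and 1.99 on ACR, and 86.6, 22.9 and 15.1 against 40.8, 113 and 54.3 in LiKM. It had an interaction of 2.34 (SE 0.96, edgeR adjusted p = 0.396), with the diets apart in LiK and overlapping in LiKM, and -0.64 with the clock components. Mycn, a Myc family gene, had 2.26 to 3.79 and 2.74 to 5.14 CPM in LiK, with overlap of the diets in both strains (interaction -0.20, SE 0.73). Of 34 p53 targets 3 had a positive and 0 a negative interaction at an unadjusted p under 0.05 (8.82%, against 11.5% of all genes). Their median was 0.17, and it was 0.06 to 0.29 without single libraries, -0.10 with library size alone, -0.34 with the clock components and -0.08 without the 3 LiKM libraries.

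Immune cell markers had positive median diet effects in both strains. Macrophage markers had medians of 0.42 in LiK and 0.52 in LiKM, with 1 of 22 at an unadjusted interaction p under 0.05 (4.55%). By the diet effects at that p, 3 were higher and 1 lower in LiK (background 7.41% and 6.66%). In LiKM 5 were higher and 0 lower (background 2.33% and 4.91%). T and NK cell markers had medians of 1.68 and 0.59, with 0 of 15 at that interaction p. By the diet effects 5 were higher and 1 lower in LiK, and 2 higher and 1 lower in LiKM. The LiK median was 1.36 without the member at 0 in a group and 1.04 without LiK ACR diet 3, where 16 members were tested. The LiKM median was 0.36 without LiKM normal diet 1 and 0.92 without LiKM normal diet 2. It was 0.89 without LiKM ACR diet 1 and 0.29 without LiKM ACR diet 3. These markers had summed levels of 7.82 to 9.38 and 9.16 to 18 CPM in LiK and 14.8 to 32 and 27.2 to 51.4 in LiKM. Interferon response genes had medians of 0.35 and 0.36, and unfolded protein response genes 0.32 and 0.27. At that interaction p were 0 of 30 and 0 of 23. By the diet effects 5 interferon genes were higher and 1 lower in LiK, and 4 higher and 0 lower in LiKM. For the unfolded protein response 1 was higher and 0 lower in LiK, and 0 either way in LiKM. Pancreatic acinar genes had 2 of 13 tested and red cell precursor genes 6 of 10, with 0 at an unadjusted interaction p under 0.05 in both. The remaining lists had 0 to 20% of members at an unadjusted interaction p under 0.05, against 11.5% of all genes.

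**Figure D5:**
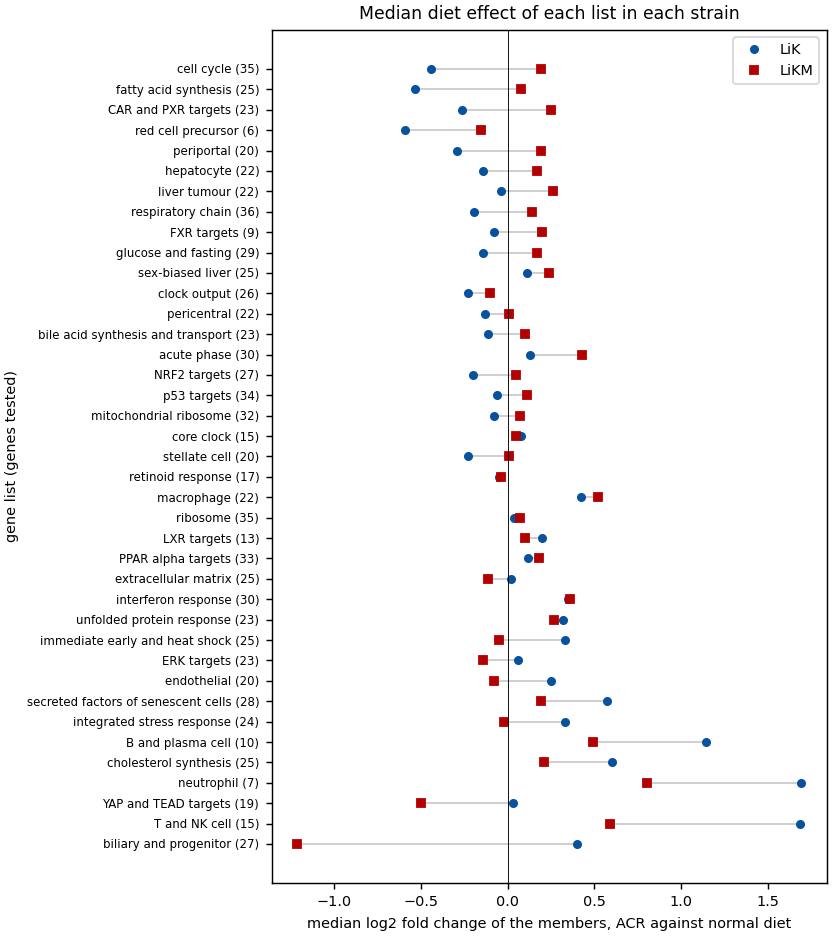
Median log2 fold change on ACR against the normal diet (horizontal axis) of the tested members of each gene list, in LiK (blue circles) and LiKM (red squares), ordered by median interaction; the number of genes tested is in brackets. Biliary and progenitor markers lie on opposite sides of 0 (0.40 and -1.21), while macrophage, interferon and PPAR alpha lists lie together.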

How the data were processed

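RNA libraries of 12 livers were prepared with the TruSeq Stranded mRNA kit, per the labels' protocols. The authors deposited estimated counts per gene symbol, made with featureCounts 2.0.0 on mm10 per the submitters' processing notes. Neither aligner nor annotation nor strand setting is given in the sources used here. Of the values above 0, 18.9% were not whole (tolerance 1e-09), and all were rounded to whole numbers. Groups came from the strain and diet labels. All 12 libraries were fitted together with 1 coefficient per group (edgeR 4.0.16 quasi-likelihood test in R 4.3.3, robust, TMM, filterByExpr). The 5382 genes at 0 in every library were among those not tested. Benjamini-Hochberg adjustment ran over all 13880 genes tested, and adjusted p under 0.05 counted as called. Log2 values, SE and CPM come from that fit and scaling. The biological coefficient of variation was 0.203, and the median SE of an interaction was 0.28. Libraries of a group differed by more than sampling noise.

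The text names 7 fixed genes, the 12 genes of smallest interaction p in each direction whose mean reached 5 CPM in a group, up to 3 members from each of the 10 lists with most members at an unadjusted p under 0.05, and 12 genes with opposite diet effects. Others are examples chosen after their values were seen. The members, the 40 gene lists and the motifs were chosen with earlier results of these data known, and the printed promoters after the matches were seen. Same-numbered LiKM mice deviated together from their group means (correlations 0.37, 0.22 and 0.48), while LiK mice did not (0.02, -0.05 and -0.07). The labels do not say what a number shares. The replicate block within each strain was planned, and the block within LiKM only was added after seeing the data. DESeq2 1.42.0, limma-voom 3.58.1, other scalings and filters, covariates and omitted libraries were the other alternatives. The fit was tested on simulated data. Gene positions are from GENCODE on mm10, and promoter sequences (250 bases before the start, both strands searched) are from RefSeq GRCm38.p6. The starts of a gene in these sources can differ. Some items of the model and of the clock list are not reported here.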

Additional observations from a re-analysis of the deposited data

Results flagged for a closer look

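The responses of Mreg to ACR differed between the strains by the test of the difference itself, with log2 -1.50 (SE 0.20) in LiK and 1.01 (SE 0.20) in LiKM. The difference was 2.51 on the log2 scale (SE 0.29, edgeR adjusted p = 0.0201), with all 3 LiK mice on ACR below all LiK controls and all 3 LiKM mice on ACR above all LiKM controls. Mreg was called under 16 of 25 alternatives. The call ended with the clock components (edgeR adjusted p = 0.971) or the identifier prefix (0.0984) as covariates, and without any single LiK library or LiKM ACR diet 2 (0.0516 to 0.104).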

How the results depend on the processing

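For the interaction, the count of called genes (1) was 160 with DESeq2, 16 with library size alone, 2 with no filter on low counts, 146 with the replicate block within each strain, 260 with the block within LiKM only, 0 with the identifier prefix (2506 at an unadjusted p under 0.05) or the clock components as covariates, 15 without LiKM normal diet 3, LiKM ACR diet 2 and LiKM ACR diet 3, 52 without LiKM normal diet 3 and LiKM ACR diet 3, and 0 to 20 without single libraries. For the diet effect in LiK (27), the same settings gave 397 with DESeq2, 551 and 701 with the replicate blocks, 16 and 0 with the covariates, 624 and 542 without 3 and 2 LiKM libraries, 812 when only LiK was fitted, and 0 to 108 without single libraries. For the diet effect in LiKM (0), they gave 79 with DESeq2, 12 with limma-voom, 7 and 9 with the replicate blocks, 1 with the clock components, 1 without 3 libraries, and 0 to 5 without single libraries. The causes were not tested. With 3 libraries omitted, 1 LiKM mouse on ACR remains, which is assumed to vary like the other groups. Among gene values of the interaction, 1225 stayed called, or stayed uncalled and moved by at most 1 SE, whatever their sign. Of the rest, 9 lost the call, 137 gained it and 104 stayed uncalled and moved by more than 1 SE. No called value changed sign. Of the 7 fixed genes, 3 kept their sign under every alternative. With 3 mice a group and interactions of SE 0.28 at the median, small differences could not be called.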
